A study of Mus musculus with 42 samples.

Results

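6 genes that encode receptors for noradrenaline, adrenaline and glucagon were followed in the liver and in white (WAT) and brown (BAT) fat: the adrenergic receptor genes *Adrb1*, *Adrb3*, *Adra1a*, *Adra1b* and *Adra2a*, and the glucagon receptor gene *Gcgr*. A member was taken as any probe set (a group of short probes that reads 1 transcript) whose annotation names one of these genes and no other. Of the 6 genes, 2 had such a probe set, 1 each, among the 18193 genes named in this way: *Gcgr* (1450127_a_at) and *Adra1b* (1422183_a_at). The other 4 genes, *Adrb1*, *Adrb3*, *Adra1a* and *Adra2a*, are named alone by no probe set of the annotation used here and were not analysed here. The results therefore concern the glucagon receptor and 1 α1-adrenergic receptor, and say nothing of the β receptors.

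The mice were males of the ddY strain, 5 weeks old per the methods of the study and then acclimated for 1 week. They received by feeding tube either water or a 1.8% solution of VAAM, the amino acid mixture modelled on the larval saliva of *Vespa* hornets, in 5 daily doses of 37.5 μL per g of body weight, and tissue was taken 4 h after the last dose with food removed from all mice that morning. RNA of 7 mice per group and tissue was hybridised to 1 Affymetrix mouse array per mouse and tissue, which gave 42 arrays. A further group given a casein-like mixture (CAAM) was not analysed here.

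Glucagon and the catecholamines are the hormones that tell liver and fat to release fuel. The glucagon receptor of hepatocytes acts through the stimulatory G protein and adenylyl cyclase, and the cAMP formed activates protein kinase A and genes of gluconeogenesis. The α1B receptor acts through Gq, phospholipase C and calcium, and in rodent liver it is a main route by which adrenaline starts glycogen breakdown. In adipocytes the β receptors, through the same cAMP route as glucagon, drive lipolysis and, in brown fat, thermogenesis.

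The 250 bases before each annotated start of both genes, from RefSeq (GRCm38.p6), are shown because both genes had their highest level in liver and *Adra1b* has a pair of annotated starts. Capitals mark the GC box, searched as GGGCGG on both strands. The bases are written 5′ to 3′ in the direction of the gene. The *Gcgr* window lies at chr11:120530477-120530726 (+ strand), and the *Adra1b* windows at chr11:43901238-43901487 (upstream start) and chr11:43836490-43836739 (downstream start), both on the − strand.
Gcgr: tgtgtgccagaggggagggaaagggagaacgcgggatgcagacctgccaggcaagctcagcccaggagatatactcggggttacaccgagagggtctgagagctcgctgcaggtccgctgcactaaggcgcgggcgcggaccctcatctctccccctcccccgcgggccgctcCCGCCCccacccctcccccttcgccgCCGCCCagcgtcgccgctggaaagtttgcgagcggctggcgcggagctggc
Adra1b, upstream start: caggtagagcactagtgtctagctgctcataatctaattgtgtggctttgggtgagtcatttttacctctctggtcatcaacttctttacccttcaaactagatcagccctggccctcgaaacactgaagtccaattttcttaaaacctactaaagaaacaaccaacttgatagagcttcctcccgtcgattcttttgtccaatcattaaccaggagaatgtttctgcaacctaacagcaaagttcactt
Adra1b, downstream start: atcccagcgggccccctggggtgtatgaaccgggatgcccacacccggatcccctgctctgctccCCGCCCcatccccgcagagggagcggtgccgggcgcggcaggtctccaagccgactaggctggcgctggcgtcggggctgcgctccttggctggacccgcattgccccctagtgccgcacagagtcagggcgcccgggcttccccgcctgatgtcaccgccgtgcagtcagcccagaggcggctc

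The *Gcgr* window and the downstream *Adra1b* window were rich in G and C, at 70.4% and 72.8%, and the upstream *Adra1b* window was not, at 41.6% (median of 32851 promoter windows of this length, 52.4%). The GC box occurred 2 times in the *Gcgr* window, 1 time in the downstream *Adra1b* window and in 32.7% of all windows. The cAMP response element TGACGTCA, its shorter form TGACG (each also on the other strand), the E-box CACGTG and the TATA motif TATAAA were found in none of the 3 windows, and occurred in 1.55%, 17.8%, 6.02% and 12.4% of all windows. TGACG lies within TGACGTCA, so those counts overlap. These are matches of letters, and which start the tissues used was not measured.

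The labelled tissues carried their own markers. All 7 measured hepatocyte genes were highest in liver and 6 of 7 brown adipocyte genes were highest in BAT, with *Ucp1* at 14.22 in BAT, 6.36 in WAT and 6.39 in liver. Of 6 measured adipocyte genes, 5 were highest in WAT and 1 in BAT. Genes of other tissues were also present, since 10 of 11 epididymis genes were highest in WAT, 8 of them by more than 1 on the log2 scale, and all 11 skeletal muscle genes were highest in BAT, 8 of them by more than 1. In each tissue 1 or more arrays stood apart from the others, by the scores on the leading 3 principal components (more than 2.2 SD from the mean), namely VAAM mouse 6 in liver, VAAM mouse 1 in WAT and VAAM mice 3 and 5 in BAT. All values are the summary that the authors deposited, on a log scale taken here as log2, and the number of arrays limits their precision. This summary left very little spread between arrays of a tissue (median SD of a probe set 1.08e-05 in liver, 1.41e-05 in WAT and 1.06e-05 in BAT), so a difference between groups is given in units of the pooled within-group SD and is not a fold change.

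*Gcgr* was far higher in liver than in either fat tissue. Its level over 14 arrays was 10.47 in liver, 6.9997 in WAT and 6.92 in BAT. In the water mice the liver level was 3.47 above that in WAT and 3.54 above that in BAT, and the VAAM mice, a separate set of animals, gave the same differences to 2 decimals. Of all 45037 probe sets, 0.79% were at least as far above WAT in the liver of the water mice and 0.93% as far above BAT.

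*Adra1b* was also highest in liver, by a smaller margin. Its level was 7.49 in liver, 6.64 in WAT and 6.57 in BAT. The liver level was 0.86 above WAT and 0.93 above BAT in both groups of mice, and 4.23% and 4.9% of all probe sets were at least as far in this direction in the water mice. One of both receptors, *Gcgr*, was more than 1 higher in liver than in both fat tissues, as were 3.07% of all probe sets. Neither was more than 1 higher in WAT (3.36% of all probe sets) or in BAT (1.1%) than in both other tissues.

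WAT and BAT could not be ordered for either receptor. BAT minus WAT was -0.08 for *Gcgr* and -0.07 for *Adra1b* in both groups of mice, close to the median of all probe sets (-0.09). Quantile normalization of the 14 arrays of both fat tissues, within each group of mice, turned these to 0.09 and 0.01. Normalized likewise with WAT or with BAT, the liver differences stayed, at 3.63 and 3.53 for *Gcgr* and 1.10 and 0.98 for *Adra1b*. The array medians were nearly equal within a tissue but differed between tissues (6.73 in liver, 6.91 in WAT, 6.77 to 6.78 in BAT), and the limma test between tissues passed nearly everything: both receptors had an adjusted p under 0.05 in all 6 tests, as did 99.8% of all probe sets for BAT minus WAT and for liver minus WAT and 99.9% for liver minus BAT, in water and in VAAM mice alike. A call between tissues therefore does not single out the receptors, and the levels are given as a description. In bulk tissue, fewer cells of a type and less RNA per cell cannot be told apart.

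**Figure D1:**
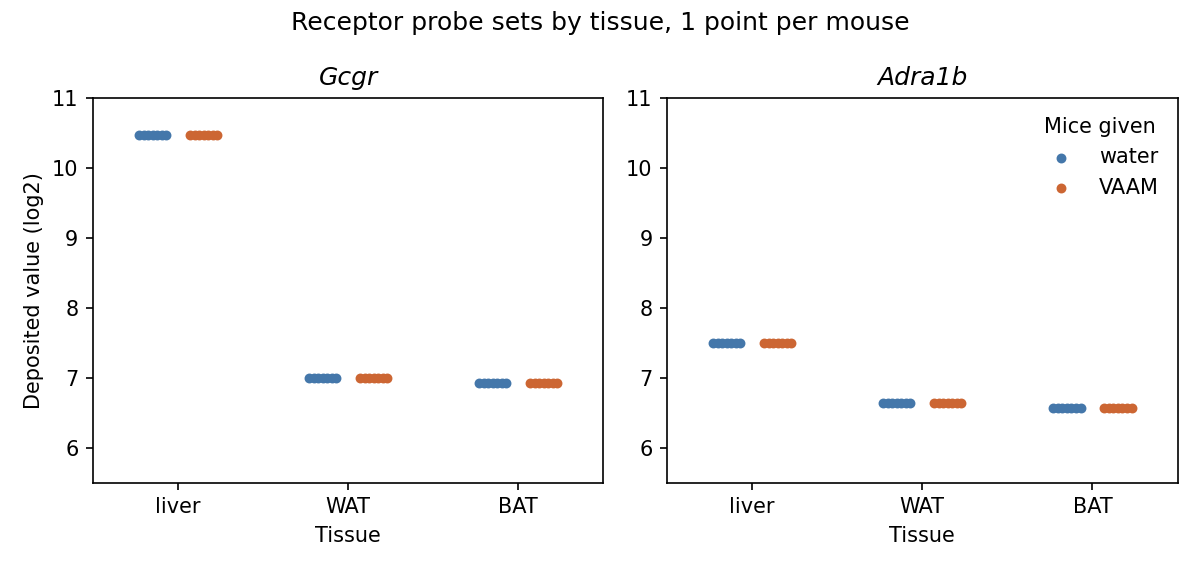
Deposited value (log2) of the *Gcgr* and *Adra1b* probe sets in liver, WAT and BAT, 1 point per mouse, 7 water and 7 VAAM mice per tissue. Both receptors are highest in liver, *Gcgr* at 10.47 and *Adra1b* at 7.49, and the points of the groups lie on top of each other at this scale.

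VAAM against water gave no call for either receptor in any tissue. With limma over all 45037 probe sets, neither receptor had an adjusted p under 0.05 in liver, WAT or BAT, as was so for every probe set (0% called in liver, 0% in WAT and 0% in BAT). Neither had an unadjusted p under 0.05, against 9.09% of all probe sets in liver, 3.76% in WAT and 5.1% in BAT. The groups overlapped for both receptors in every tissue, as for all but 70, 22 and 43 of all probe sets in liver, WAT and BAT. The rank products method, which the study names, called neither receptor at a false discovery rate under 0.05 in any tissue, against 3.86% of all probe sets in liver, 3.29% in WAT and 4.04% in BAT, and the lowest rate for a receptor was 0.176, for *Adra1b* as higher in liver.

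In liver, *Gcgr* of the water mice had a lowest, median and highest value of 10.466406, 10.466416 and 10.466424. The VAAM mice had 10.466407, 10.466415 and 10.466423. The groups covered the same range, and 3 of 7 VAAM mice were above the water median. The difference was 0.02 ± 0.535 SD (VAAM minus water ± SE, n = 7 and 7, two-sided exact permutation p 0.973, limma adjusted p 0.996), with a 95% interval from -1.15 to 1.18 SD.

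In WAT the *Gcgr* values of the water mice were 6.999717, 6.999734 and 6.999742 (lowest, median, highest), and those of the VAAM mice 6.999715, 6.999730 and 6.999740. Mouse 1 was the lowest of its group in both. The groups overlapped, 3 of 7 VAAM mice lay above the water median, and the difference was -0.34 ± 0.539 SD (exact permutation p 0.531, limma adjusted p 1, 95% interval -1.51 to 0.82). Without VAAM mouse 1, whose array stood apart, the difference was -0.06 SD.

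In BAT the *Gcgr* values were 6.923824, 6.923832 and 6.923834 in the water mice and 6.923827, 6.923830 and 6.923832 in the VAAM mice. All VAAM values lay inside the water range and 1 of 7 was above the water median, while the means differed by only 0.05 ± 0.535 SD (exact permutation p 0.935, limma adjusted p 0.997, 95% interval -1.12 to 1.21). The sign of the *Gcgr* difference was not settled in liver or BAT, since it was -0.23 SD in liver without VAAM mouse 6 and -0.12 SD in BAT with array weights.

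*Adra1b* in the liver of the water mice had a lowest, median and highest value of 7.493472, 7.493904 and 7.494485. The VAAM mice had 7.493933, 7.493997 and 7.494194. All 7 VAAM mice were above the water median, yet the mean difference was small against the spread, at 0.25 ± 0.537 SD (exact permutation p 0.639, limma adjusted p 0.926, 95% interval -0.91 to 1.42). Quantile normalization turned it to -0.66 SD.

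The liver *Adra1b* values of the water mice fell into a higher set and a lower set with the VAAM mice between them. Water mice 1, 2 and 3 were 1.11, 1.66 and 1.34 SD above the water mean, and water mice 4, 5, 6 and 7 were at -0.93, -1.71, -0.27 and -1.20 SD. The 7 VAAM mice lay from -0.18 to 0.69 SD, a range that held no water mouse. The SD of the water mice was 0.000409 and that of the VAAM mice 0.000116, a ratio of 3.53 that 0.469% of all probe sets reached in liver. This contrast in spread was picked after the values had been seen, and it was not tested. The probe set was also one of the more variable in liver, with a within-group SD 28.4 times the median of all probe sets, which 4.67% of probe sets reached.

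In WAT the *Adra1b* values were 6.635652, 6.635673 and 6.635693 in the water mice and 6.635667, 6.635676 and 6.635698 in the VAAM mice. Mouse 1 was again the lowest of each group. The groups overlapped, 5 of 7 VAAM mice were above the water median, and the difference was 0.38 ± 0.54 SD (exact permutation p 0.479, limma adjusted p 1, 95% interval -0.78 to 1.55). It was 0.58 SD without VAAM mouse 1 and turned to -0.80 SD after quantile normalization.

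In BAT the *Adra1b* values were 6.565107, 6.565113 and 6.565122 in the water mice and 6.565107, 6.565113 and 6.565118 in the VAAM mice. The groups overlapped almost entirely. In the VAAM group 4 of 7 mice exceeded the water median, and the difference was -0.24 ± 0.537 SD (exact permutation p 0.653, limma adjusted p 0.991, 95% interval -1.41 to 0.92), and -0.06 SD without VAAM mouse 3. Over both receptors and all tissues the intervals reached from -1.51 to 1.55 SD, so differences of about that size lie within the error of 7 mice per group.

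**Figure D2:**
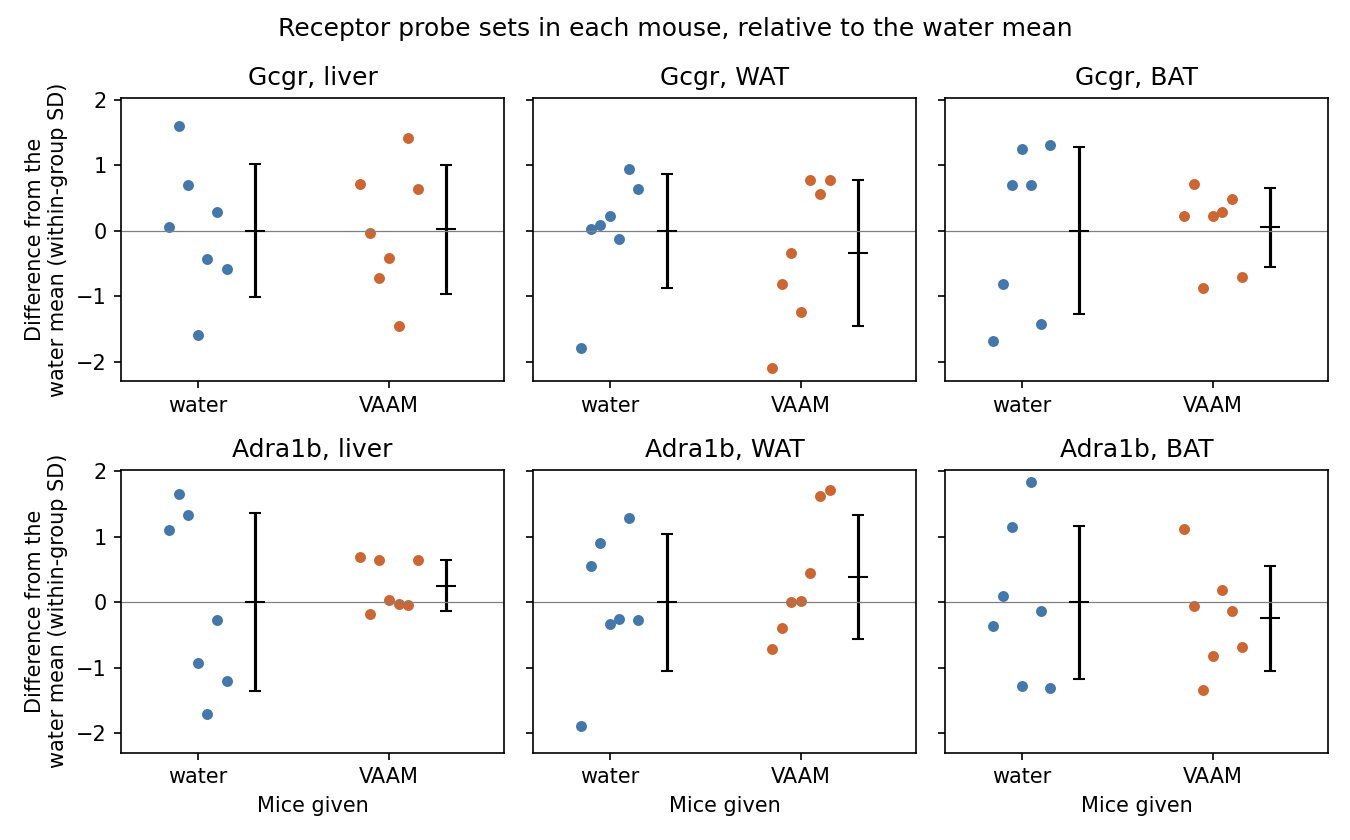
Each mouse's value of *Gcgr* (top) and *Adra1b* (bottom) in liver, WAT and BAT as the difference from the water mean in units of the pooled within-group SD, mice 1 to 7 from left to right in each group, with the group mean and SD as bars. The groups overlap in all panels, and in liver the VAAM values of *Adra1b* lie from -0.18 to 0.69 between the higher and the lower water mice.

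The effect of VAAM on the receptors was also compared between tissues, on values in within-group SD. For *Gcgr* the effect in liver minus that in WAT was 0.36 SD, liver minus BAT was -0.03 SD and WAT minus BAT was -0.39 SD. For *Adra1b* the corresponding values were -0.13, 0.50 and 0.63 SD. None of the 6 passed limma's interaction test, with adjusted p of at least 0.935. Few probe sets did: of all 45037, 112 passed for liver minus WAT, 69 for liver minus BAT and 9 for WAT minus BAT. The SD used for the scaling came from the same arrays, so every probe set entered with equal spread. The test made no allowance for error in that SD, and these counts may be too high.

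**Figure D3:**
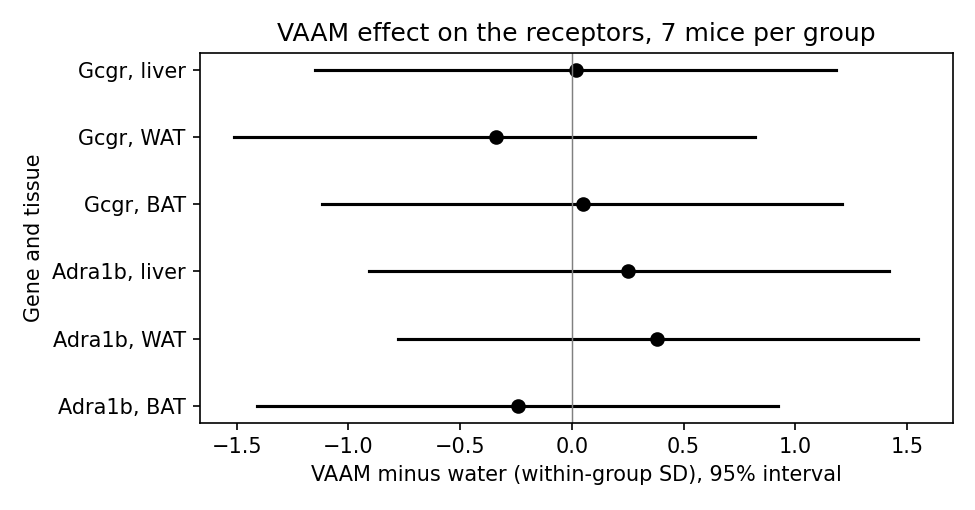
VAAM minus water in units of the pooled within-group SD, with 95% intervals, for *Gcgr* and *Adra1b* in each tissue, 7 mice per group. All 6 intervals include 0, and together they reach from -1.51 to 1.55 SD.

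The WAT arrays with the lowest receptor values were those with the highest epididymis markers. The mean of the 11 epididymis genes in WAT, in within-group SD, was 1.24 in water mouse 1 and 2.002 in VAAM mouse 1, and ranged from -0.67 to 0.61 in the other water mice and from -0.45 to 0.41 in the other VAAM mice. Both mice numbered 1 had the lowest *Gcgr* of their group, at -1.79 and -2.10 SD from the water mean, and the lowest *Adra1b*, at -1.89 and -0.72 SD. Simple epithelium markers were also highest in both, at 1.45 and 2.26. Adipocyte markers were the lowest of their group in both (-0.53 in water mouse 1 and -2.59 in VAAM mouse 1), as were endothelium markers (-0.51 and -2.655). The part of these other RNAs in the receptor values was not tested. Without both mice the VAAM difference in WAT was -0.51 SD for *Gcgr* and 0.32 SD for *Adra1b*, with no call.

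**Figure D4:**
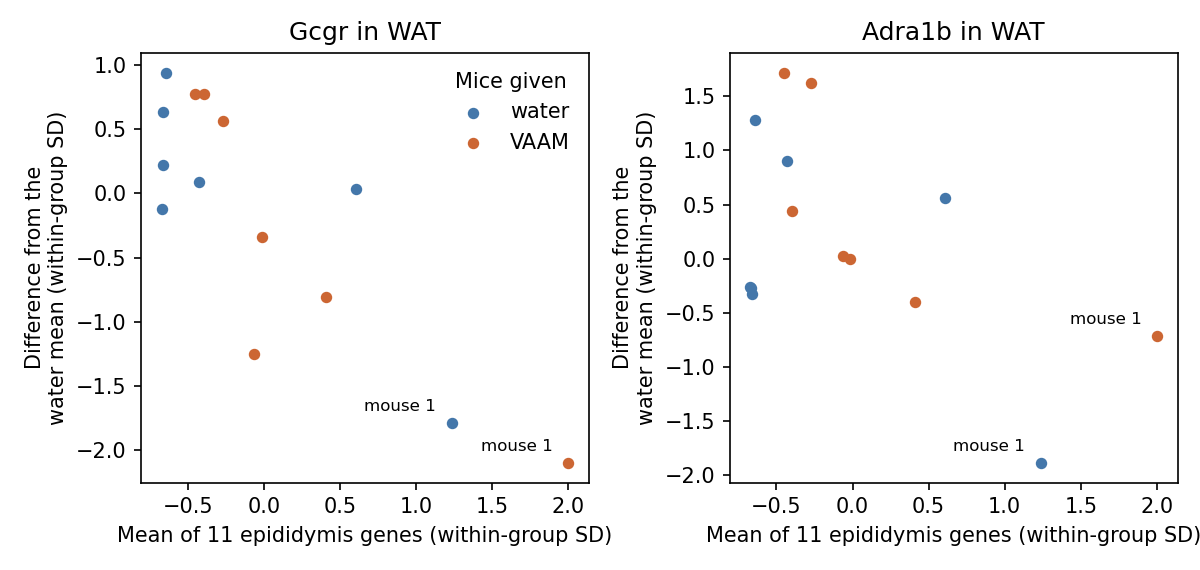
Receptor values in WAT (difference from the water mean in within-group SD, vertical axis) against the mean of 11 epididymis genes (within-group SD, horizontal axis), 1 point per mouse. The 2 mice numbered 1 lie furthest right, at 1.24 and 2.002, and have the lowest *Gcgr* of their groups.

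In BAT the mean of 11 skeletal muscle genes ranged from -0.89 to 1.58 SD in the water mice and from -0.96 to 1.31 SD in the VAAM mice. The BAT *Gcgr* values showed no steady order with it. Water mouse 1, with the highest muscle mean, had the lowest *Gcgr*, at -1.69 SD, but water mouse 6, with a muscle mean of -0.76, had the next lowest, at -1.43 SD. VAAM mouse 7, with the highest muscle mean of its group, was at -0.71 SD, and VAAM mouse 1, with a muscle mean of 1.09, was at 0.23 SD. The part of muscle RNA in these values was not tested.

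The genes whose levels were most like those of the receptors were genes with a higher level in liver. Over 42 arrays the nearest to *Gcgr* were *Hsd17b13*, *Ermap* and *Gm11190*, and the nearest to *Adra1b* were *Grik4*, *Abca6* and *6430604M11Rik*, each with a Pearson r that rounds to 1 at 3 decimals. Such likeness was common, since 1159 of 18192 other genes had an r over 0.99 with *Gcgr* and 1171 with *Adra1b*, and all these genes share the split between liver and both fat tissues. Within liver, after the group means were taken off, the nearest over 14 arrays were *Nkx6-3* (r = 0.910), *Anpep* (0.892) and *Rimbp3* (0.891) for *Gcgr*, and *Vps35l* (0.924), *Eri3* (0.924) and *Ywhae* (0.897) for *Adra1b*. These are descriptions over arrays that share a summary, with no test.

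Of the other receptors of these families, 8 genes were measured on 14 probe sets, and none was called by limma, as was so for all probe sets. *Adra2c*, an α2 receptor and the only 1 of 4 further adrenergic receptor genes with a probe set of its own, was read by 4 probe sets that disagreed on the tissue, with 2 highest in liver, 1 in WAT and 1 in BAT, none by more than 0.32. Of 8 further receptors of the glucagon family, 7 were measured on 10 probe sets. Among them only *Vipr1*, a receptor for vasoactive intestinal peptide, stood more than 1 higher in liver than in the other tissues, by 1.23 on 1 of its 2 probe sets. The receptors for GLP-1 (*Glp1r*) and GIP (*Gipr*) were at 6.21 and 6.34 in liver, 6.22 and 6.70 in WAT, and 6.23 and 6.36 in BAT. VAAM gave an unadjusted limma p under 0.05 for 1 of these 10 probe sets in liver and for none in WAT or BAT. The 1 in liver was the other *Vipr1* probe set (lower). Of all probe sets, 9.09% had such a p in liver, 3.76% in WAT and 5.1% in BAT. Rank products called 1 of the 10, a probe set of the PACAP receptor gene *Adcyap1r1*, as lower in WAT. There it called 3.29% of all probe sets. The *Adcyap1r1* difference was -0.81 ± 0.56 SD (exact permutation p 0.154), with an interval from -1.98 to 0.35 SD. This probe set was not called when each probe set was first scaled to unit within-group SD.

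The route from receptor to target was read by 10 lists with 93 measured genes on 245 probe sets. No probe set of these lists passed limma after adjustment in any tissue. At an unadjusted p under 0.05 there were 17 higher and 14 lower probe sets in liver (12.7% of 245, against 9.09% of all probe sets), 7 higher and 12 lower in WAT (7.76% against 3.76%), and 8 and 8 in BAT (6.53% against 5.1%). Rank products called 13 higher and 5 lower in liver, 6 and 5 in WAT, and 23 and 8 in BAT, and 1 probe set in liver (*Ddc*) and 1 in BAT (*Rgs2*) was called both ways. Counted once, these were 17, 11 and 30 probe sets, or 6.94%, 4.49% and 12.2%, against 3.86%, 3.29% and 4.04% of all. The cAMP target list alone gave 7 higher and 0 lower in liver, 3 and 1 in WAT and 14 and 1 in BAT. It holds genes that the study singled out on these samples, and several probe sets can read 1 gene. The shares are therefore not independent evidence about the route. Without VAAM mice 3 and 5 the BAT call was 15 higher and 8 lower. None of the probe sets called on the deposited values was called again when each probe set was first scaled to unit within-group SD.

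By tissue level, 40 of the 93 signalling genes were highest in WAT (43%, against 47.7% of all 18193 genes), 34 in BAT (36.6% against 24.3%) and 19 in liver (20.4% against 28%). Any margin was counted, such as 0.03 for *Gnb2* in BAT, on deposited values whose array medians differed between tissues. Small margins do not order the tissues. The signalling genes more than 1 higher than in both other tissues were 4 in WAT, 6 in BAT and 5 in liver (4.3%, 6.45% and 5.38%, against 4.41%, 1.53% and 4.84% of all genes). Of these, 3 in BAT and 2 in liver were cAMP target genes, not parts of the route before the targets. *Ucp1*, used above as a marker of brown adipocytes, was among those in BAT. Among the G protein subunits *Gnai1*, an inhibitory α subunit, stood at 12.69 in WAT, 10.84 in BAT and 6.61 in liver, and *Gnas*, which encodes the stimulatory α subunit, at 13.08, 13.75 and 12.07. Among the subunits of protein kinase A, the regulatory subunit gene *Prkar2b* was at 11.71 in WAT, 12.67 in BAT and 5.99 in liver. The phosphodiesterase gene *Pde4d*, whose product breaks down cAMP, was at 10.39 in BAT and 7.70 and 7.24 in WAT and liver. These genes were picked for their tissue contrast and carry no test.

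In each tissue a gene of the lists was represented by whichever of its probe sets had the highest mean there, and the gene with the smallest unadjusted limma p among these was named if that p was under 0.05. Other probe sets of a list, such as 1 of *Pde8a* in BAT (-1.51 ± 0.617 SD, limma adjusted p 0.926), could have an unadjusted p under 0.05 without being named by this rule. The groups overlapped for every gene so named, as for all but 70, 22 and 43 of 45037 probe sets in liver, WAT and BAT. In liver these were *Gnai3*, an inhibitory G protein subunit (1.76 ± 0.644 SD, limma adjusted p 0.385), *Grk5*, a kinase that desensitizes receptors (1.82 ± 0.651, 0.371), *Prkar1a*, a regulatory subunit of protein kinase A (1.25 ± 0.592, 0.523), the phosphodiesterase gene *Pde1c* (-1.26 ± 0.593, 0.508) and *Dbh*, which makes noradrenaline (-1.14 ± 0.583, 0.55). In WAT they were *Gnas* (-1.74 ± 0.642 SD), the adenylyl cyclase gene *Adcy9* (-1.54 ± 0.621), the kinase anchor gene *Akap5* (1.53 ± 0.619) and the phospholipase C gene *Plcb4* (-1.24 ± 0.591), each with a limma adjusted p of 1. In BAT *Gnai3* was at 1.32 ± 0.598 SD (limma adjusted p 0.946), with all 7 VAAM mice above the water median, as in liver. Some of the named genes were dim. *Grk5* and *Pde1c* in liver, at 6.57 and 6.55, lay below the array medians there (6.73). *Akap5* in WAT, at 6.69, also lay below them (6.91). Whether these values exceed background was not tested.

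At the far end of the route, the list of cAMP target genes had a median above 0 in all tissues, with no member called by limma. The median difference over their 31 probe sets was 0.35 SD in liver, 0.42 in WAT and 0.46 in BAT, against -0.05, -0.01 and -0.02 over all probe sets, and 18, 22 and 21 of the 31 were above 0. *Sik1*, a kinase gene induced by cAMP, had the smallest p of the list in each tissue by its brighter probe set, at 1.61 ± 0.627 SD in liver, 1.64 ± 0.631 in WAT and 1.69 ± 0.637 in BAT, with limma adjusted p of 0.425, 1 and 0.926. Its other probe set was at 1.64 ± 0.63 SD in WAT but at -0.62 ± 0.549 SD in BAT, where 0 of 7 VAAM mice were above the water median and rank products called it lower, so the probe sets of *Sik1* disagreed in BAT. In liver rank products called the brighter *Sik1* probe set higher and did not call the other. Rank products called 7 probe sets of the list higher and 0 lower in liver, 3 and 1 in WAT and 14 and 1 in BAT, where 3.86%, 3.29% and 4.04% of all probe sets were called in either direction. They included the gluconeogenic genes *Pck1* and *G6pc* in liver, and *Dio2*, *Nr4a1* and *Nr4a3* in BAT. Without the arrays that stood apart, the call was 7 and 0 in liver, 3 and 0 in WAT and 9 and 1 in BAT. After quantile normalization it was 5 and 0 in liver, 0 and 0 in WAT and 10 and 0 in BAT, and at unit SD it was 0 in each. Several of these genes were singled out by the study on these samples, so their direction is not independent evidence.

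**Figure D5:**
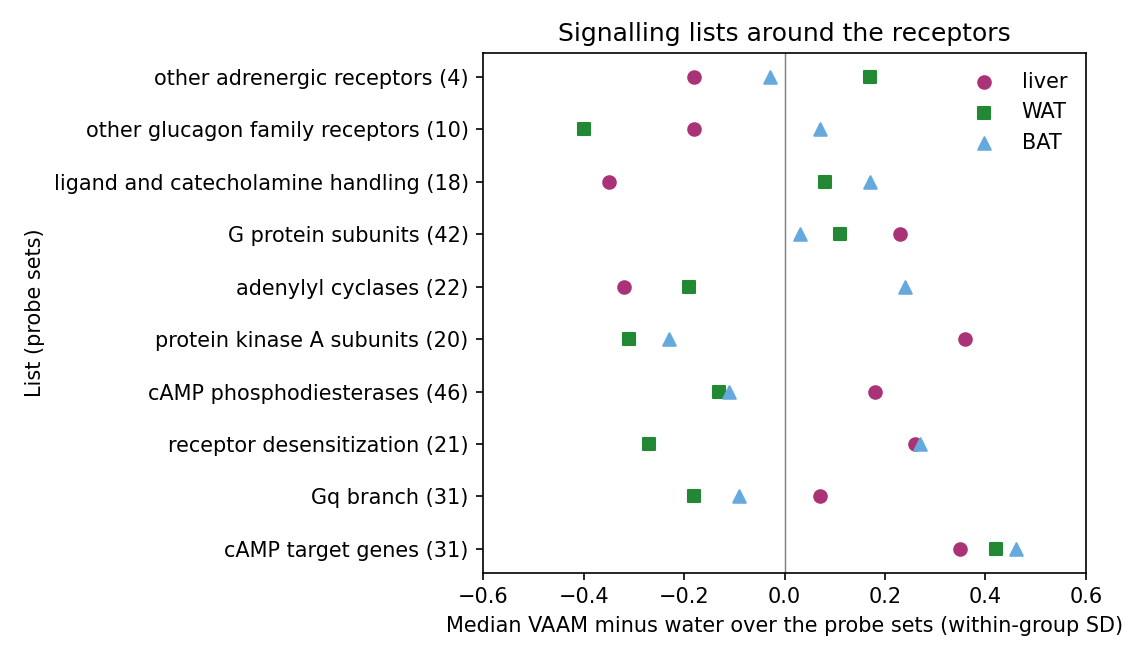
Median VAAM minus water over the probe sets of each signalling list, in within-group SD, for liver (circles), WAT (squares) and BAT (triangles), with the number of probe sets in brackets. The list of cAMP target genes is at 0.35, 0.42 and 0.46, and no other list but the G protein subunits lies above 0 in all tissues.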

How the data were processed

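The RNA was hybridised by the authors to Affymetrix Mouse Genome arrays, and the scans were summarized with the DFW (distribution free weighted) algorithm in R, of which the submitters' processing notes name version 2.7.2. The values that the authors deposited are logarithms without a stated base, which was taken as log2 from their range. The array medians were nearly equal within a tissue and differed between tissues. DFW shrinks the deviations of a probe set between arrays, and by different amounts for different probe sets. Of 45101 probe sets, 64 controls were dropped and all other 45037 were tested, dim ones included. A single gene is named by 34945 of them, several genes by 932 and no gene by 9160. The genes and lists were chosen with earlier results of these data known. Named genes were the 2 measured receptors, the gene with the smallest limma p of each signalling list in each tissue if under 0.05 unadjusted (each gene by whichever of its probe sets had the highest mean there), and the 3 genes nearest to each receptor.

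Within each tissue, VAAM was compared with water by limma 3.58.1 under R 4.3.3 (Benjamini-Hochberg adjusted p, threshold 0.05) and with rank products over 49 pairs of arrays (50 permutations of the values within each array, Python 3.11.15, numpy 2.4.6, pandas 2.3.3). Tissues were compared by limma within the water and within the VAAM mice, and the VAAM effect between tissues by an interaction term on values in within-group SD. Exact permutation p values are two-sided over all 3432 splits of 14 mice, of which the smallest possible is 0.000583. Figures were drawn with matplotlib 3.10.9. Each mouse is a replicate. Alternatives were a replicate block, probe sets above the median alone, a trend and robust prior, array weights, quantile normalization, 1 fit over 42 arrays, an exact rank sum test, unit SD and leaving out each array. Promoter windows came from RefSeq tables of GRCm38.p6. The files name no genome build, so the probe sets are given without coordinates.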

Additional observations from a re-analysis of the deposited data

Results flagged for a closer look

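*Gcgr* in WAT had 1 value apart from the others of its group. Water mouse 1, at 6.999717, lay below the other 6 water mice by 0.612 of the group's whole range, above Dixon's critical value for 7 values. It was the only value so flagged in 38 groups of 7 checked for the receptors and the named list genes, and chance flags about 1 in 20 groups.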

How the results depend on the processing

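The count of receptor probe sets called for VAAM against water, 0 in each tissue, was 0 under all alternatives run, by limma, the rank sum test and rank products. The rank sum test could hardly call any probe set after adjustment, so its 0 carries little information. With 7 and 7 mice its smallest possible p is 0.000583, which only groups without overlap reach. Such groups occurred for 70, 22 and 43 of 45037 probe sets in liver, WAT and BAT. *Adra1b* lay below the median in WAT and in BAT, so the fit to probe sets above the median alone could not call it there. The count of receptor differences between tissues in the VAAM effect was 0 with and without the replicate block. Quantile normalization within a tissue turned the VAAM difference of *Adra1b* to -0.66 SD in liver and -0.80 SD in WAT. Over the arrays of both fat tissues within a group of mice, it turned BAT minus WAT to 0.09 for *Gcgr* and 0.01 for *Adra1b*, in water and in VAAM mice. Array weights turned *Gcgr* in BAT to -0.12 SD. Chosen after seeing the data, leaving out the mice numbered 1 of both groups turned *Gcgr* to -0.08 SD in liver and -0.28 SD in BAT, and leaving out VAAM mouse 6 turned it to -0.23 SD in liver. None of these passed the threshold, and the cause was not tested. The number of receptors called between BAT and WAT fell from 2 to 1 with probe sets above the median alone, in water and in VAAM mice, because *Adra1b* lay below that median. Leaving out arrays for a single receptor was planned only for an unadjusted p under 0.05, which none had. Groups share mouse numbers. The correlation of deviations between same-numbered water and VAAM mice ran from -0.128 to 0.136 in liver, -0.079 to 0.478 in WAT and -0.191 to 0.174 in BAT, and 1, 2 and 2 of 7 water mice were nearest to their own number, so the numbers were not taken to pair water with VAAM mice. With the replicate block the VAAM differences were 0.02, -0.65 and 0.04 SD for *Gcgr* and 0.27, 0.51 and -0.25 SD for *Adra1b* in liver, WAT and BAT, and the count of all probe sets called was 1, 0 and 0. Between tissues, 5 of 7 arrays were nearest to their own number for liver and BAT in both groups of mice. For WAT and BAT it was 6 in water and 5 in VAAM mice, and for liver and WAT 3 and 4. The labels do not say whether equal numbers mark the same mouse. The main tests between tissues took the arrays as independent, and the replicate block left their counts of receptors called unchanged. A single fit over 42 arrays called 691, 129 and 315 probe sets in liver, WAT and BAT, where the fits by tissue called 0 (unadjusted p under 0.05 for 4096, 1692 and 2296), and neither receptor was among them. Of 240 values under other settings, 228 were labelled as unchanged, but most of the 240 were counts of calls. Of the counts, 182 were unchanged and 2 were lower. They had little room to change, since the main limma fits called 0 probe sets for VAAM and nearly all between tissues. Of the differences of a single receptor, 46 kept their sign and 10 reversed it.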
